A study of Mus musculus with 2 samples.

Results

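Thyrotropin-releasing hormone and corticotropin-releasing hormone, their receptors, the ectoenzyme that degrades the first and the protein that binds the second are encoded in the mouse by 7 genes: Trh, Trhr, Trhde, Crh, Crhr1, Crhr2 and Crhbp. They were looked up by symbol among the 32289 features of a single-nucleus RNA data set. Each of the 7 symbols matched 1 feature.

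The anterior hypothalamus with the preoptic area was dissected from male mice, and nuclei were profiled in droplets (10x Genomics). The aged library pooled tissue of 5 mice of 22 months. The young library pooled tissue of 5 mice of 3 months, called wild-type in the labels. No treatment, transgene or strain is given for either pool. Each age is thus 1 library of 1 pool, so no difference between the ages could be tested, and age, pool, dissection and library preparation cannot be told apart. Intervals are 95% intervals for counting error only, and they do not cover the spread between mice or between nuclei.

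TRH and CRH are the hypothalamic peptides that head the thyroid and the adrenal axes. Neurosecretory neurons of the paraventricular nucleus release them at the median eminence, where TRH acts on pituitary thyrotrophs and CRH on corticotrophs. Both are also made elsewhere in the brain as neuromodulators, TRH in preoptic and other hypothalamic neurons and CRH in many GABAergic neurons. The TRH receptor couples mainly to Gq and phospholipase C, and both CRH receptors couple mainly to Gs and cAMP.

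The level of a gene is its count of unique molecular identifiers (UMIs) per 1000000 UMIs of the same nuclei (CPM). Levels are compared for 1 gene across cells and libraries, and not between genes, whose lengths differ. Nuclei were barcodes with 500 or more detected genes and at most 5% mitochondrial UMIs, less called doublets, which left 8229 aged and 9948 young nuclei. Neurons numbered 4999 and 6425, with a median of 8353 and 7763 UMIs. Markers of oligodendrocytes summed to 202 CPM in aged and 178 in young neurons, against 19093 and 19472 in oligodendrocytes. Those of microglia summed to 92.8 and 103, against 11547 and 13546 in microglia, and no marker of either list was at 0 in neurons. A cluster of 519 aged and 92 young nuclei with a median of 683 and 708 UMIs was led by Oxt, Avp and ribosomal protein genes, and it was left unnamed and out of the neurons. The libraries shared 25 cell barcodes.

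The stretch before the start of Trh is shown because Trh gathered in few neuron types, with 85.0% of its aged and 80.7% of its young neuronal UMIs in 3 of them. Trh lies on the minus strand at chr6:92242061-92244650 (GRCm38, GENCODE M21) and overlaps no other annotated gene. The 250 bases before its start, at chr6:92244651-92244900 on the minus strand (RefSeq, GRCm38.p6), read 5′ to 3′ as follows. Capitals mark TGACCTCA, a sequence known in the Trh promoter for binding of thyroid hormone receptor and CREB, and TATAAG, a variant of the TATA box core.
Trh: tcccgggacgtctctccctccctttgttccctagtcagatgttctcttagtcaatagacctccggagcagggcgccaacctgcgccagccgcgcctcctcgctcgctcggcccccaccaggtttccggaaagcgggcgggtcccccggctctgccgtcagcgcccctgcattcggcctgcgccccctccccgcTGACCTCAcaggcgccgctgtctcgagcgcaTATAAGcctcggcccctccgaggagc
The first letter of TGACCTCA lay at position -57 and that of TATAAG at -26, counted from the base before the start as -1. Windows of the same length were available for 5 of the 7 genes and for 27025 genes in all, and both strands were searched. TGACCTCA was in 1.87% of these windows and in no other of the 5. TATAAG was in 6.81% of the windows and in no other of the 5. The cAMP response element TGACGTCA was in 1.62% of all windows and in none of the 5. A match describes letters and is not evidence of binding in these nuclei.

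The other genes lie at chr15:44196135-44235912 on the plus strand for Trhr, chr10:114398823-114802307 on the minus strand for Trhde, and chr3:19693401-19695396 on the minus strand for Crh. Crhr1 lies at chr11:104132855-104175523 on the plus strand, Crhr2 at chr6:55090049-55133016 on the minus strand and Crhbp at chr13:95431371-95444924 on the minus strand. All 7 are annotated as protein coding. Trhde overlaps 2 opposite-strand genes, 4930473D10Rik and Gm15723. No source used here states whether counting used strand, so reads of Trhde and these genes may not be separated.

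All 7 genes had a higher level in neurons than in oligodendrocytes, in both libraries. Trh, the TRH precursor, stood at 30.2 CPM in aged neurons (1405 UMIs) and 22.9 in young neurons (1276 UMIs). In oligodendrocytes Trh stood at 14.9 and 7.98, and barcodes of 100 or fewer UMIs, which hold free RNA, gave 61.9 and 47.1. Trh RNA was thus measured at a higher level in empty droplets than in the sum of neurons. A UMI of Trh was found in 5.92% of aged and 5.21% of young neurons, and in 3.14% and 1.69% of oligodendrocytes and microglia, whose median depths were 2045 and 1881 UMIs.

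Crh, the CRH precursor, stood at 7.73 CPM in aged neurons (360 UMIs) and 8.48 in young neurons (473 UMIs), against 16.6 and 20.9 in the empty droplets. Crh had a UMI in 3.54% of aged and 3.56% of young neurons, and in 0.654% and 1.19% of oligodendrocytes and microglia. Crh in young microglia came to 58.7 CPM, of which 50 of 55 UMIs were in 1 nucleus. That nucleus had 10119 UMIs, against a median of 1805 for the other 476 young microglia, which gave 5.39 for Crh. It held UMIs of 7 of 7 microglial markers and of 9 of 10 neuronal markers, among them 13 of Gad1 and 102 of Meg3. It was not among the called doublets, and whether it is a doublet was not tested further.

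The receptors were low in glia. Trhr, the TRH receptor, stood at 15.1 and 11.7 in aged and young neurons and at 0.734 and 0.912 in oligodendrocytes. Crhr1, the high-affinity CRH receptor, stood at 10.4 and 12.8 in neurons and at 0.979 and 1.60 in oligodendrocytes, against 10.9 (7.06 to 16.1) and 10.5 (6.21 to 16.6) in the empty droplets. Crhr2, the receptor that prefers urocortins, stood at 4.08 and 3.75 in neurons and at 0.245 and 0.456 in oligodendrocytes. Of the extracellular proteins, Trhde, which cleaves TRH at the cell surface, stood at 128 and 135 in neurons and 12.97 and 10.03 in oligodendrocytes. Crhbp, which binds CRH and urocortin, stood at 3.29 and 4.10 in neurons and 0.734 and 1.37 in oligodendrocytes, against 6.98 (3.99 to 11.3) and 6.98 (3.61 to 12.2) in the empty droplets.

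**Figure D1:**
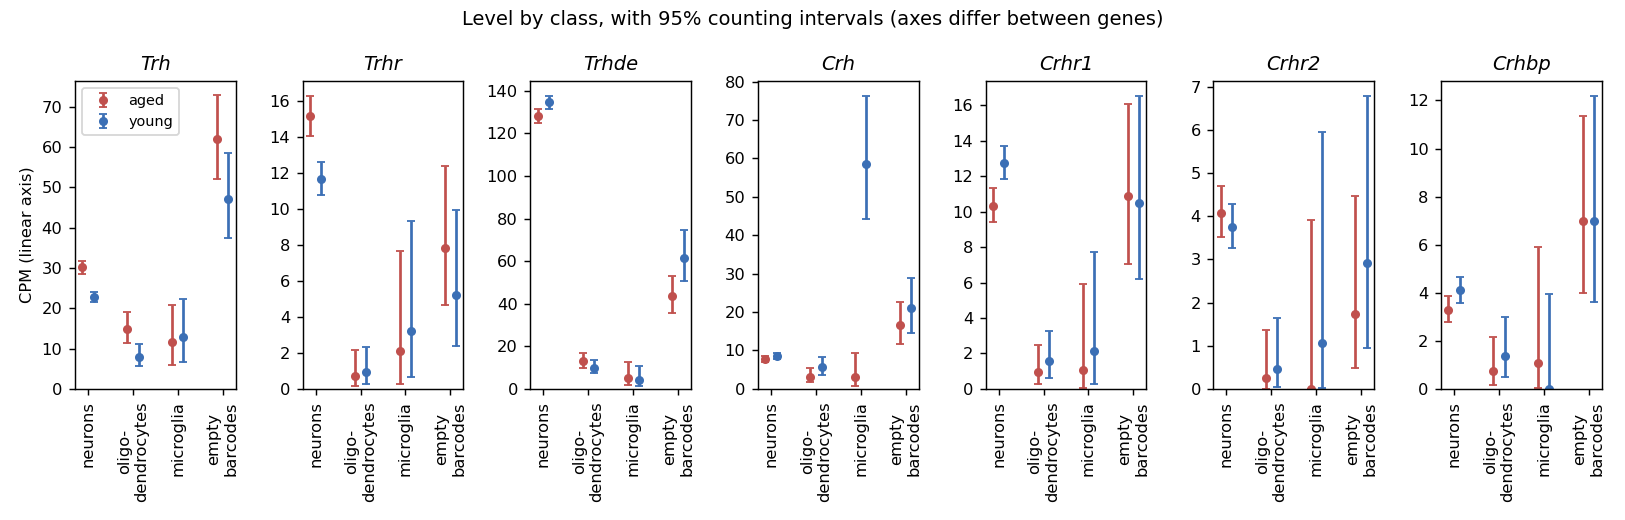
Level (CPM, linear axis from 0) of each of the 7 genes in neurons, oligodendrocytes, microglia and barcodes of 100 or fewer UMIs, aged (red) and young (blue), with 95% counting intervals and axes that differ between genes. Trh, Crh and Crhbp are higher in the empty barcodes than in neurons in both libraries, Crhr1 is about as high, and the young microglial Crh value of 58.7 rests on 1 nucleus.

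Neurons were clustered with the 7 genes left out. Of 28 sub-clusters, 25 had 20 or more nuclei in each library and are described, and each is called by its leading genes. Of the 25, 19 were GABAergic by Gad and Slc32a1 levels. The other 3 were led by Slc17a7, Pdzrn3 and Sim1 (1 aged and 72 young nuclei), by Avp, Oxt and Sim1 (11 and 16), and by Top2a and Cenpf (1 and 21). The Avp/Oxt/Sim1 sub-cluster, which carries the markers of paraventricular and supraoptic neurons, held 0 UMIs of Trh and 0 of Crh in both libraries. Its few nuclei cannot show whether such neurons lack either gene. At a finer clustering resolution, described below, a group led by the same genes had Trh at 545 and 421 CPM (58 aged and 80 young nuclei).

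**Figure D2:**
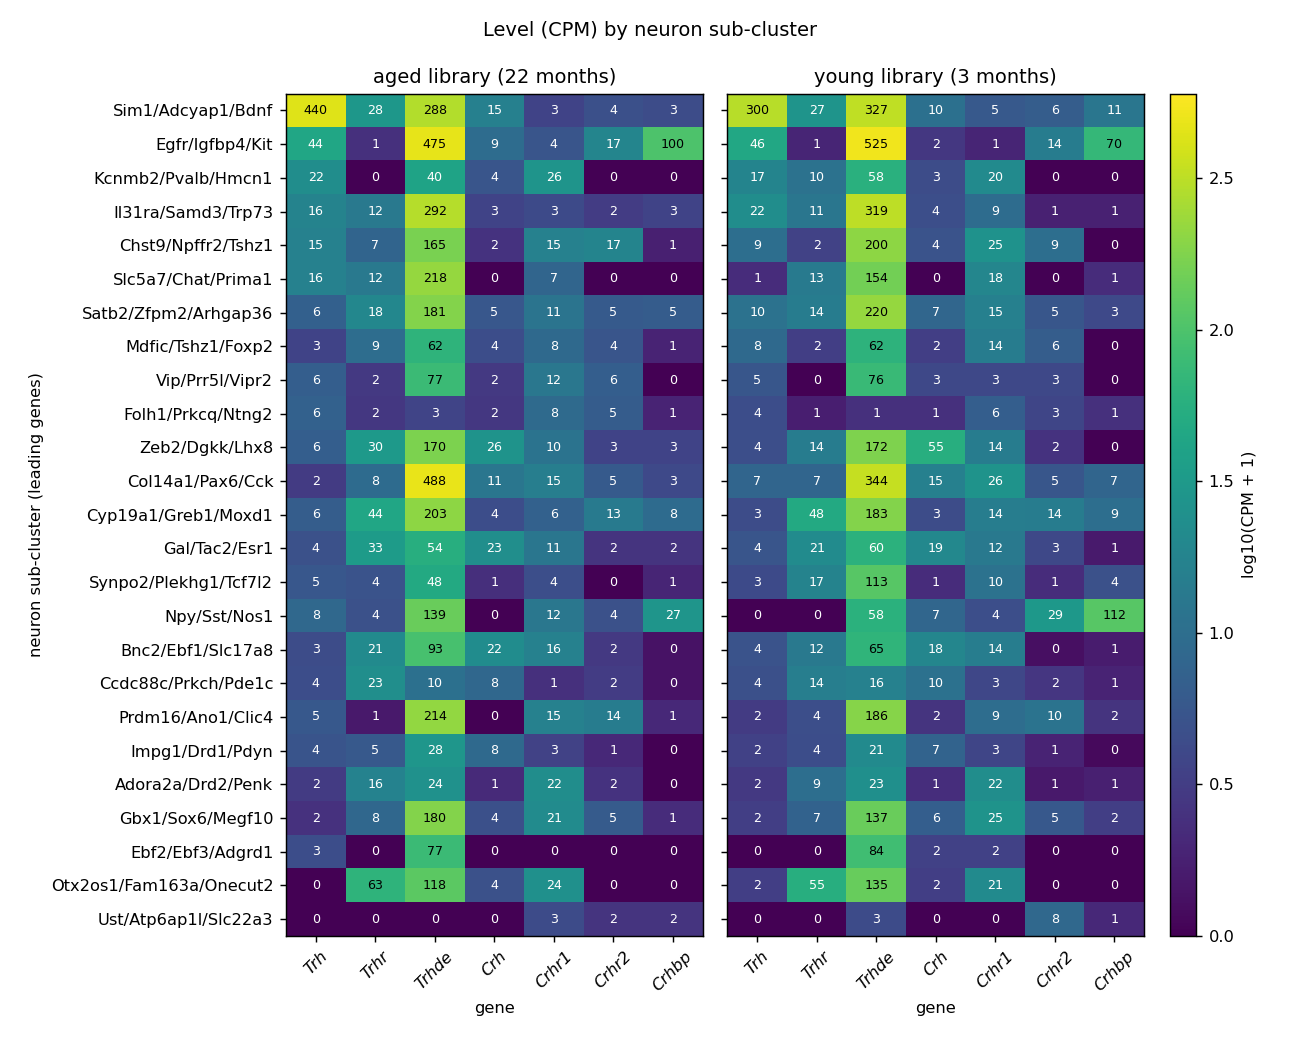
Level (CPM, printed in each cell and coloured on a log10 scale) of the 7 genes in the 25 neuron sub-clusters of the aged and the young library, ordered by the mean level of Trh. Trh reaches 440 and 300 in Sim1/Adcyap1/Bdnf and at most 45.8 in any other sub-cluster, while Trhde is spread over many.

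Trh was concentrated in 1 glutamatergic sub-cluster, Sim1/Adcyap1/Bdnf, which held 271 aged and 357 young nuclei, or 5.42% and 5.56% of neurons. By its markers this sub-cluster was medial preoptic glutamatergic-like, with 5 of 5 markers of that type detected. Its first leading gene, Sim1, belongs instead to the marker list of paraventricular and supraoptic neurons, so the name is tentative. Sim1 is a transcription factor of paraventricular and neighbouring neurons, and Adcyap1 encodes the peptide PACAP. Trh stood there at 440 CPM in the aged library (1159 UMIs) and 300 in the young library (975 UMIs). The aged level was 1.47 times the young level (interval 1.35 to 1.60), and 1.499 times without the nucleus with most Trh UMIs in each library. The next sub-cluster by Trh was the Lhx6 interneuron-like Egfr/Igfbp4/Kit, at 43.5 and 45.8 on 30 and 50 UMIs, with a ratio of 0.950 (0.583 to 1.52). The third, the GABAergic Kcnmb2/Pvalb/Hmcn1, stood at 22.0 and 16.9 on 5 UMIs in each library, too few for a ratio. The glutamatergic Il31ra/Samd3/Trp73 followed at 16.5 and 22.0, and its ratio was 0.748 (0.465 to 1.18). The median over the 25 sub-clusters was 4.79 and 3.70, below the level in oligodendrocytes, and is read as background.

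At a finer resolution, chosen as an alternative, most Trh UMIs lay in 3 groups, and the aged level was the higher in each of these 3. The group led by Avp, Oxt and Sim1 had 58 aged and 80 young nuclei, of which 47 and 64 came from Sim1/Adcyap1/Bdnf, with Trh at 545 and 421, a ratio of 1.29 (1.10 to 1.52). The group led by Sim1, Ebf1 and Adcyap1 had 144 and 175 nuclei with Trh at 377 and 272, a ratio of 1.39 (1.23 to 1.57). The group led by Gm28526, C1ql1 and Adamts2 had 80 and 119 nuclei with Trh at 409 and 231, a ratio of 1.77 (1.48 to 2.11). Outside these 3, the group led by Egfr, Igfbp4 and Kit had a ratio of 1.00 (0.615 to 1.61) on 30 and 49 UMIs. That led by Il31ra, Samd3 and Trp73 had a ratio of 0.742 (0.462 to 1.17) on 31 and 55 UMIs.

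A neuron was called above background for a gene where it held 3 or more UMIs of it and where the level in oligodendrocytes and microglia of its library would give as many with a Poisson probability under 0.001. For Trh this held for 106 aged neurons (2.12%, 1.74 to 2.56) and 120 young neurons (1.87%, 1.55 to 2.23). The shares differed by 0.253 points (-0.260 to 0.785), an interval that holds 0. These neurons carried 84.6% and 80.9% of the Trh UMIs of all neurons. Of them, 93 of 106 and 99 of 120 lay in Sim1/Adcyap1/Bdnf. All other neurons together stood at 4.75 and 4.46 CPM for Trh.

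Within Sim1/Adcyap1/Bdnf, the share above background for Trh was 34.3% in the aged library (28.7 to 40.3) and 27.7% in the young one (23.1 to 32.7). The difference was 6.59 points (-0.679 to 13.9). Per nucleus above background, Trh UMIs ranged from 3 to 40 with a median of 8 in the aged library, and from 3 to 50 with a median of 7 in the young library. The 2 distributions of Trh UMIs overlapped over almost their whole range. The summed Trh level of these nuclei was 1209 CPM (aged) and 1018 CPM (young), a ratio of 1.19 (1.09 to 1.30). These nuclei were chosen by their own Trh UMIs, so this ratio depends in part on the limit. The limit lay higher in the aged library, where Trh in oligodendrocytes and microglia was 14.3 CPM against 8.83 in the young library.

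**Figure D3:**
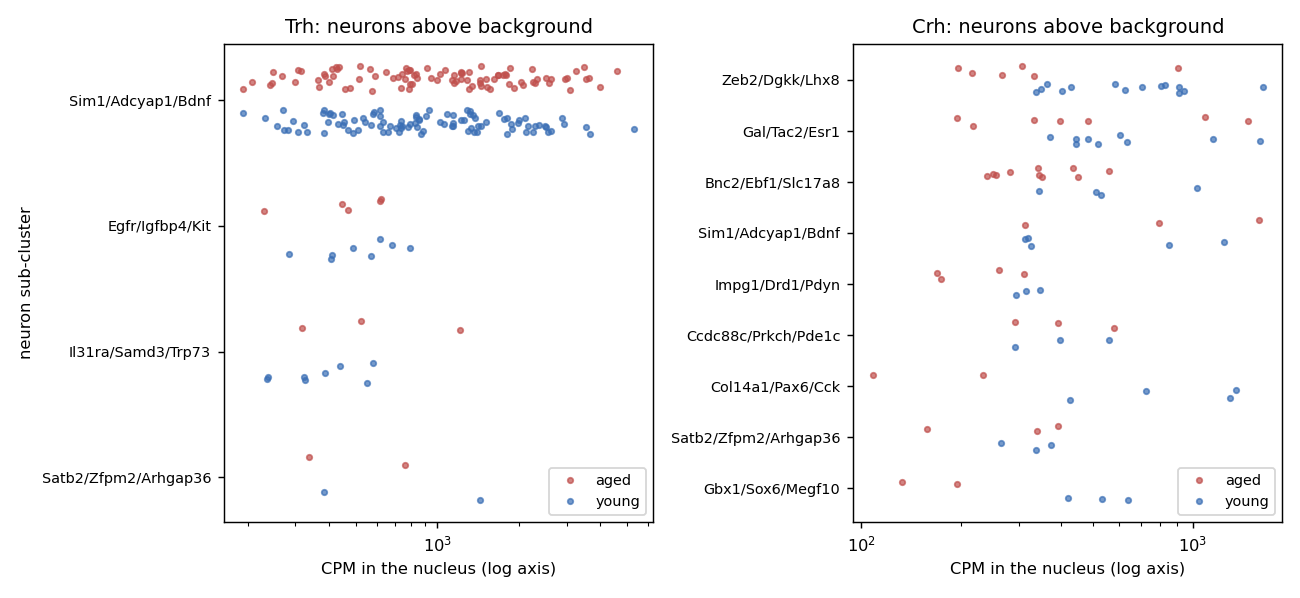
Each point is 1 neuron above background for Trh (left) or Crh (right), by sub-cluster (those with 3 or more such neurons) and library (aged red, young blue), and the log axis gives its CPM of that gene. Trh neurons gather in Sim1/Adcyap1/Bdnf (93 and 99 nuclei), while Crh neurons are spread over the 9 sub-clusters shown.

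Neurons with Trh above background were glutamatergic. Slc17a6, the vesicular glutamate transporter of the hypothalamus, was 4.12 times as high in them as in other neurons of the aged library and 3.62 times in the young library. Gad2, which makes GABA, stood at 0.246 and 0.262 times the other neurons. Adcyap1 was 18.8 and 17.1 times as high and Bdnf, a neurotrophin, 13.2 and 11.4 times, although both helped to define the sub-cluster. The peptide genes Cartpt, at 1.76 and 1.94 times, and Tac1, at 1.58 and 1.60 times, followed. Trhde was 3.53 and 3.83 times as high, and 56 of 106 aged and 66 of 120 young Trh neurons were also above background for Trhde. Trhr was 2.03 and 2.16 times as high, and 4 Trh neurons in each library were above background for it.

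Within Sim1/Adcyap1/Bdnf the nuclei with Trh above background also differed from the other nuclei of the sub-cluster. Trhde stood at 377 against 239 in the aged library, a ratio of 1.58 (1.36 to 1.82), and at 396 against 300 in the young library, a ratio of 1.32 (1.157 to 1.499). Sim1 was 1.91 and 1.86 times as high in the Trh nuclei, Adcyap1 2.03 and 2.25 times, and the tachykinin gene Tac1 2.07 and 2.003 times. Trhr had ratios of 1.29 (0.790 to 2.10) and 1.24 (0.760 to 1.97), whose intervals hold 1. Gad2 stood at 0.454 and 0.483 times the other nuclei, and Crh at 0.204 and 0.180 times, on 4 and 2 UMIs in the Trh nuclei. The Crh level of the other nuclei rests on few of them, since 33 of the 40 aged Crh UMIs of the sub-cluster were in 3 nuclei and 25 of the 31 young ones in 5. A Crh UMI was found in 3.23% of aged Trh nuclei against 2.81% of the other aged nuclei, and in 2.02% against 3.49% of the young ones, so that the shares did not follow the level in the aged library. Of the enzymes that mature neuropeptides, the prohormone convertase Pcsk2 was 1.53 (1.40 to 1.67) and 1.21 (1.11 to 1.33) times as high. Pcsk1, the other convertase, had ratios of 0.633 (0.451 to 0.875) and 0.987 (0.747 to 1.29). Pam, which amidates peptides such as TRH, stood at 0.681 (0.600 to 0.773) in aged and 1.19 (1.07 to 1.33) in young nuclei, on opposite sides of 1.

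**Figure D4:**
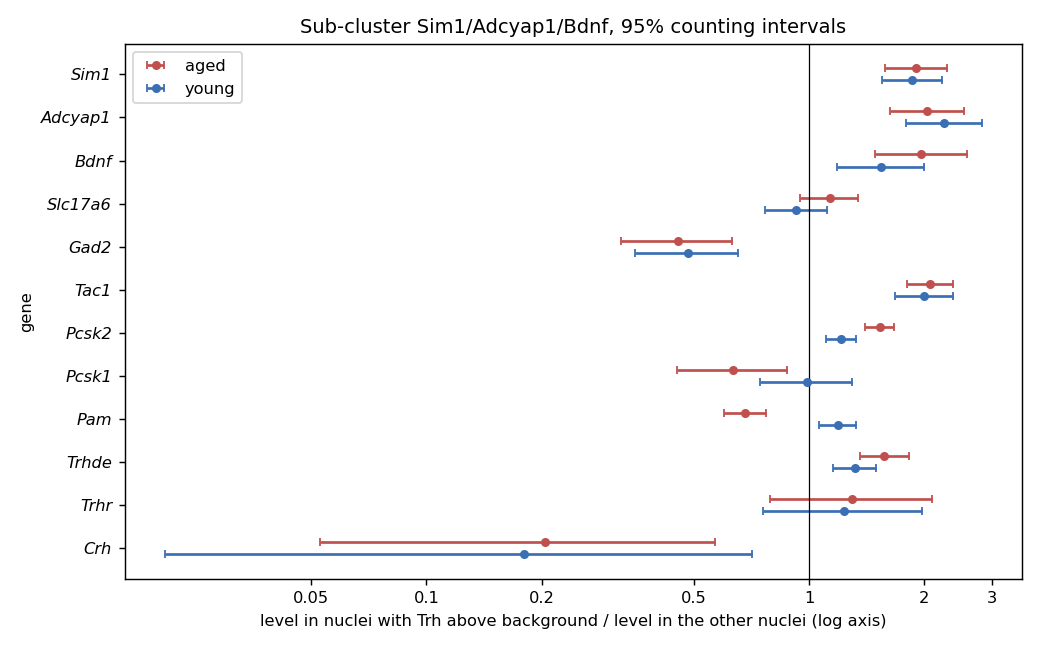
Ratio (log axis) of the level of 12 genes in nuclei with Trh above background to that in the other nuclei of Sim1/Adcyap1/Bdnf, aged (red) and young (blue), with 95% counting intervals. Sim1, Adcyap1, Bdnf, Tac1, Pcsk2 and Trhde lie above 1 and Gad2 and Crh below 1 in both libraries, while Pam lies on opposite sides.

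Crh was spread over several sub-clusters and did not gather in one. The highest level was in Zeb2/Dgkk/Lhx8 (205 aged and 220 young nuclei), at 25.7 CPM in the aged library (49 UMIs) and 54.9 in the young library (104 UMIs). The aged level was 0.467 times the young level (0.326 to 0.663), and 0.415 times without the nucleus with most Crh UMIs in each library. In that sub-cluster 7.84% of 12162 genes were lower by 1.5-fold or more in the aged library. Neurons above background for Crh were 6 of 205 aged and 14 of 220 young nuclei, shares that differ by -3.44 points (-7.77 to 0.733). Microglial markers summed to 98.0 and 137 CPM in these nuclei and oligodendrocyte markers to 194 and 156, and their part in the result was not tested.

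Gal/Tac2/Esr1, a preoptic Esr1 GABAergic-like sub-cluster, had Crh at 22.5 and 19.1 on 69 and 64 UMIs, with a ratio of 1.18 (0.827 to 1.68). Bnc2/Ebf1/Slc17a8 had Crh at 21.7 and 17.7 on 57 and 56 UMIs, with a ratio of 1.22 (0.832 to 1.803). These 3 sub-clusters held 48.6% of the neuronal Crh UMIs of the aged and 47.4% of those of the young library. The intervals of Gal/Tac2/Esr1 and Bnc2/Ebf1/Slc17a8 hold 1, unlike that of Zeb2/Dgkk/Lhx8. The glutamatergic Sim1/Adcyap1/Bdnf followed with Crh at 15.2 and 9.52 on 40 and 31 UMIs, a ratio of 1.60 (0.974 to 2.64). It held 3 aged and 5 young neurons above background for Crh, among them the aged neuron with most Crh UMIs, 17.

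Crh was above background in 42 aged neurons (0.840%, 0.606 to 1.13) and 48 young neurons (0.747%, 0.551 to 0.989), and the shares differed by 0.0931 points (-0.233 to 0.439). When the glial nucleus with most Crh UMIs was left out of the background, an alternative chosen after seeing the data, the counts were 42 and 54. With a minimum of 5 UMIs they were 12 and 26, and the difference turned to -0.165 points. Per neuron above background, Crh UMIs ranged from 3 to 17 (median 4) in aged neurons and from 3 to 13 (median 5) in young neurons. Their summed Crh level was 347 CPM (aged) and 556 CPM (young), a ratio of 0.624 (0.516 to 0.753). The median total of these nuclei was 12328 UMIs at 22 months and 8881 UMIs at 3 months. The limit itself lay higher in the young library, where glial Crh was 15.03 CPM against 3.18 in the aged library.

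Neurons with Crh above background were mostly GABAergic. Gad2 was 1.32 and 1.45 times as high in them as in other neurons, and Slc17a6 stood at 0.646 and 0.614 times. The tachykinin gene Tac2 was 4.23 and 9.98 times as high, the granin-family gene Vgf 2.66 and 2.67 times, and the peptide gene Nts 1.91 and 4.08 times. Tac2 and Nts were among the leading genes of Gal/Tac2/Esr1, which held 7 of the aged and 9 of the young Crh neurons. Adcyap1 was 3.68 and 2.06 times as high, and the young interval (0.982 to 3.81) holds 1. A UMI of Adcyap1 was found in only 4 aged and 4 young Crh neurons, and 13 of 26 and 7 of 10 UMIs were in 1 nucleus. Vip was 6.67 and 2.33 times as high, and 48 of its 53 aged UMIs were in 1 nucleus. No neuron was above background for both Trh and Crh, among 106 and 42 such aged neurons and 120 and 48 such young neurons. The product of the shares would give 0.891 and 0.896 such neurons, so a count of 0 is no sign that the genes avoid each other. No Crh neuron was above background for Crhr1, Crhr2 or Crhbp either, of which few neurons could pass.

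Among the receptors, Trhr was highest in the small mixed sub-cluster Otx2os1/Fam163a/Onecut2 (22 aged and 42 young nuclei), at 63.1 and 54.8 CPM on 16 and 24 UMIs. Cyp19a1/Greb1/Moxd1, a preoptic Esr1 GABAergic-like sub-cluster whose first gene encodes aromatase, had Trhr at 43.6 and 48.0 on 62 and 85 UMIs. Sim1/Adcyap1/Bdnf, the Trh sub-cluster, had Trhr at 28.5 and 26.7 on 75 and 87 UMIs. The ratios in these 3 were 1.15 (0.571 to 2.26), 0.908 (0.644 to 1.27) and 1.07 (0.772 to 1.47), so that each interval holds 1.

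Trhr was higher in the aged library in 12 of 14 sub-clusters with 20 or more UMIs. In 5 of them the interval lay above 1, and in 1 it lay below. All of them come from the same 2 libraries, so they are not separate observations. Over all neurons, 52.9% of genes with 50 or more UMIs had a ratio above 1. The share over all genes by sub-cluster was not computed. Zeb2/Dgkk/Lhx8 had Trhr at 29.9 and 13.7, a ratio of 2.18 (1.35 to 3.60). Adora2a/Drd2/Penk, the Drd2 striatal-like neurons, had 16.2 and 9.21, a ratio of 1.76 (1.21 to 2.59). Gal/Tac2/Esr1 had 32.6 and 20.9, a ratio of 1.56 (1.14 to 2.15). The thalamic-like Synpo2/Plekhg1/Tcf7l2 went the other way, at 4.15 on 9 UMIs and 16.6 on 26 UMIs. Trhr was above background in 70 aged neurons (1.40%) and 47 young neurons (0.732%), a difference of 0.669 points (0.292 to 1.08).

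Crhr1 was spread over most sub-clusters, from 0 to 26.4 CPM (aged) and from 0 to 25.7 CPM (young). Gbx1/Sox6/Megf10 had Crhr1 at 20.8 and 25.5 on 83 and 136 UMIs, with a ratio of 0.817 (0.614 to 1.08). Adora2a/Drd2/Penk had 22.1 and 22.2 on 98 and 118 UMIs, with a ratio of 0.996 (0.754 to 1.31). Kcnmb2/Pvalb/Hmcn1 had 26.4 and 20.3 on 6 UMIs in each library. Crhr1 was lower in the aged library in 13 of 15 sub-clusters with 20 or more UMIs, and in 3 of them the interval lay below 1. These sub-clusters too come from the same 2 libraries and are not separate observations. The share over all genes by sub-cluster was not computed, so these counts have no background beside them. In Sim1/Adcyap1/Bdnf, Crhr1 stood at 2.66 and 4.91 on 7 and 16 UMIs. In Trh neurons it stood at 0.172 and 0.136 times the other neurons, on 2 UMIs in each library.

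Crhr2 was the sparsest receptor by nuclei above background, with 4 aged and 8 young neurons. Npy/Sst/Nos1, the Sst and Npy interneuron-like neurons, had Crhr2 at 3.86 on 1 UMI and 29.0 on 8 UMIs. Egfr/Igfbp4/Kit had Crhr2 at 17.4 and 13.8 on 12 and 15 UMIs, a ratio of 1.27 (0.541 to 2.90). Cyp19a1/Greb1/Moxd1 had 12.7 and 13.6 on 18 and 24 UMIs, a ratio of 0.933 (0.477 to 1.79). No interval of Crhr2 in a sub-cluster excluded 1.

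Trhde was found in many neuron types, with 705 aged (14.1%) and 876 young neurons (13.6%) above background. Its leading sub-clusters were Egfr/Igfbp4/Kit at 475 and 525, Col14a1/Pax6/Cck at 488 and 344, and Sim1/Adcyap1/Bdnf at 288 and 327 CPM. The ratio was 0.903 (0.786 to 1.04) in the first, 1.42 (1.26 to 1.60) in the second and 0.882 (0.802 to 0.969) in the third. Over 23 sub-clusters with 20 or more UMIs, Trhde was higher in the aged library in 11 and lower in 12. The interval lay above 1 in 7 of them and below 1 in 5. For these counts too the share over all genes by sub-cluster was not computed. Trhde was nearly absent from Folh1/Prkcq/Ntng2 and Ust/Atp6ap1l/Slc22a3, where it was at most 3.28 CPM in either library.

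Crhbp was highest in 2 interneuron-like sub-clusters. Egfr/Igfbp4/Kit had Crhbp at 100 CPM in the aged library (69 UMIs) and 69.7 in the young library (76 UMIs), a ratio of 1.44 (1.02 to 2.02). Npy/Sst/Nos1, with 28 aged and 37 young nuclei, had Crhbp at 27.0 on 7 UMIs and 112 on 31 UMIs, a ratio of 0.241 (0.0895 to 0.557). In that sub-cluster 12.7% of 5130 genes were lower by 1.5-fold or more in the aged library. Cyp19a1/Greb1/Moxd1 had 8.43 and 9.04 on 12 and 16 UMIs. In Sim1/Adcyap1/Bdnf, 21 of the 37 young Crhbp UMIs were in 1 nucleus, and the ratio of 0.301 (0.128 to 0.635) was 0.466 (0.149 to 1.25) without the nucleus with most UMIs in each library.

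Summed over neurons, Trh was 1.32 times as high in the aged library (1.22 to 1.42) and Trhr 1.30 times (1.16 to 1.45). Crhr1 stood at 0.811 times the young level (0.721 to 0.912), Crhbp at 0.801 times (0.648 to 0.987) and Trhde at 0.950 times (0.918 to 0.983). The intervals of Crh, at 0.912 (0.793 to 1.05), and of Crhr2, at 1.09 (0.890 to 1.33), hold 1. None of the 7 genes reached 1.5-fold in either direction, a size that 9.46% of 18027 genes with 50 or more UMIs in neurons reached. Among the 11699 genes with 382 to 13470 UMIs, the range of the 7, the share was 4.64%. The median log2 ratio, with 5 CPM added, was -0.07 over the 7 genes and 0.01 over all genes. Trh had a ratio of 1.20 among neurons with at most 1% mitochondrial UMIs, and Trhde one of 1.01 with sub-clusters weighted alike. Outside neurons, Trh was also higher in the aged library in oligodendrocytes (14.9 against 7.98 CPM) and in the empty droplets (61.9 against 47.1). It was not higher in microglia, at 11.7 against 12.8 on 11 and 12 UMIs.

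Within sub-clusters the 7 genes gave 82 ratios, of which 28 (34.1%) were 1.5-fold or more in either direction, against 17.0% of all gene and sub-cluster pairs. Of the 51 pairs with 20 to 99 UMIs, 23 (45.1%) were that far apart, against 28.7% of such pairs of all genes.

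**Figure D5:**
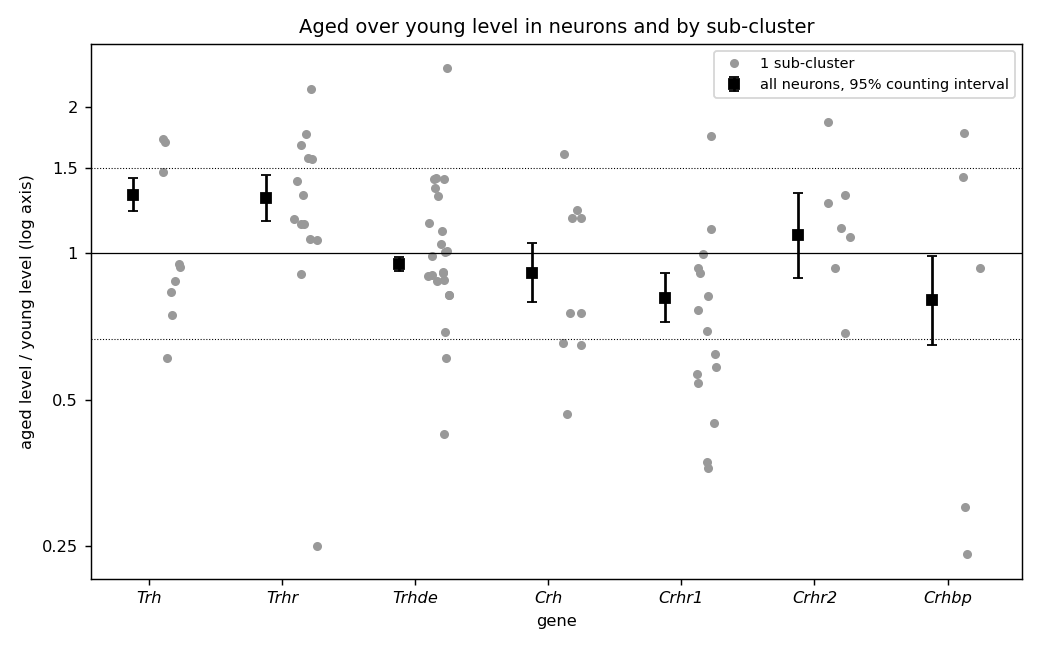
Aged over young level (log axis) of each of the 7 genes, over all neurons (black squares with 95% counting intervals) and in each sub-cluster with 20 or more UMIs (grey points); dotted lines mark 1.5-fold in either direction. All 7 squares lie within the dotted lines, Trhr has 12 of 14 points above 1, and Crhr1 has 13 of 15 below. The points of a gene come from the same 2 libraries, and the share of all genes above or below 1 by sub-cluster was not computed.

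Across the 25 sub-clusters the levels in both libraries were compared for each gene. Pearson's r between the libraries was 0.954 for Trhde, 0.877 for Crhbp, 0.812 for Crhr2, 0.793 for Crh, 0.791 for Trh, 0.788 for Trhr and 0.675 for Crhr1, on the log2 scale with 1 CPM added. Spearman's rho was 0.935 for Trhde, 0.813 for Trhr, 0.805 for Crhr2, 0.736 for Crh, 0.725 for Crhr1, 0.725 for Crhbp and 0.514 for Trh. By rank Trh was thus the least alike of the 7, and by Pearson's r Crhr1. These are descriptions over sub-clusters that share their 2 libraries. By the lower of the 2 libraries' r among 12342 genes, the genes most like Trh were Sim1 (0.55), Lrch4 (0.53) and Sdf2 (0.52). Those most like Crh were Nts (0.62), P2ry14 (0.62) and Ksr2 (0.61). Trhr was most like Zwilch (0.72), Armc9 (0.71) and Dync1i2 (0.69), and Crhr1 most like Grik3 (0.62), Dmd (0.58) and Taf9b (0.52). Crhr2 was most like Dlx2 (0.75), Moxd1 (0.66) and Wnt7a (0.65), Crhbp like Moxd1 (0.77), Nxph2 (0.75) and Sox6 (0.75), and Trhde like Unc5d (0.87), Tbc1d1 (0.83) and Alk (0.82). Between members, Crhr2 and Crhbp reached 0.56 and 0.67 in the aged and young library, and Trh and Trhde 0.42 and 0.48. Trh and Trhr reached 0.01 and 0.32.

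The other genes of the 2 pathways were described over neurons as a whole, and 52.9% of all genes had a ratio above 1. Of 13 genes that process peptide hormones, 11 were higher and 2 lower in the aged library, with a median log2 ratio of 0.13 against 0.01 over all genes. Among these, Pcsk1n, a granin-like inhibitor of the convertase PC1/3, was 1.36 times as high (1.34 to 1.39) and Qpct, which forms the pyroglutamate end of TRH, 1.29 times (1.20 to 1.39). Pcsk1 stood at 0.839 times (0.776 to 0.907). Chga, a granin, stood at 0.981 times (0.947 to 1.02). None of the 13 reached 1.5-fold.

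Of 17 genes of thyroid hormone handling with 50 or more UMIs, 12 were higher and 5 lower, with a median of 0.04. Dio3, which inactivates thyroid hormone, stood at 1.54 times the young level (0.914 to 2.62) on 36 and 28 UMIs and was the only one of the list past 1.5-fold. Dio1 and Dio2 had too few UMIs. Of 16 glucocorticoid receptors and targets, 6 were higher and 10 lower, with a median of -0.03. The NF-kappaB inhibitor gene Nfkbia was 1.26 times as high, the mineralocorticoid receptor gene Nr3c2 1.12 times, and Hsd11b1, which regenerates glucocorticoid, stood at 0.818 times (0.542 to 1.22). Zbtb16, a glucocorticoid-induced transcription factor gene, stood at 0.827 times (0.770 to 0.889).

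Of 8 receptor, ligand and enzyme partners with 50 or more UMIs, a list that holds 5 of the 7 genes, 4 were higher and 4 lower, and the urocortin genes Ucn and Ucn2 had too few UMIs. The furthest of the list was Trhr2, a second TRH receptor gene, at 1.40 times (0.831 to 2.39) on 34 and 29 UMIs. Of 19 genes of Gs and cAMP signalling, 9 were higher and 10 lower, with the protein kinase A subunit genes Prkacb at 1.19 times (1.16 to 1.23) and Prkar1a at 1.15 times (1.10 to 1.21). The adenylyl cyclase gene Adcy1 stood at 0.824 times (0.766 to 0.886) and Crtc1, a coactivator of CREB, at 0.825 times (0.786 to 0.867). Of 16 genes of Gq and phospholipase C signalling, 10 were higher and 6 lower, none past 1.5-fold in either direction. Of the inositol trisphosphate receptor genes, Itpr3 stood at 1.33 times (0.827 to 2.15) on 40 and 36 UMIs and Itpr2 at 1.26 times (1.10 to 1.45). The phospholipase gene Plcb3 stood at 0.670 times (0.468 to 0.951) on 52 and 93 UMIs. Of 10 genes of paraventricular identity, 6 were higher and 4 lower. Fezf2 was 2.12 times as high (1.23 to 3.76) on 39 and 22 UMIs. Sim1, named after its values were seen, stood at 0.715 times (0.642 to 0.795) over all neurons. Among nuclei of Sim1/Adcyap1/Bdnf with Trh above background, the aged library had the higher Sim1 level, 254 against 235 CPM. The other nuclei of that sub-cluster went the same way, with 133 against 126 CPM. The sub-cluster led by Slc17a7, Pdzrn3 and Sim1 had 1 aged and 72 young nuclei. Its part in the ratio over all neurons was not tested.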

How the data were processed

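For each library the authors deposited an unfiltered matrix of raw UMI counts, genes by barcodes. Software was Cell Ranger 4, per the file headers. The build and annotation behind the counts were not given in the sources used here. These matrices list 1967507 aged and 1984763 young barcodes with 79107368 and 87520038 UMIs.

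Barcodes with 500 or more genes and at most 5% mitochondrial UMIs numbered 8597 aged and 10437 young. Scrublet in scanpy 1.11.5 called 368 (4.28%) and 489 (4.69%) of them doublets, which were removed. Clustering used 2000 variable genes without the 7 members, 30 principal components, 15 neighbours and Leiden (leidenalg 0.10.2) at resolution 1, and neurons were clustered again alone. Classes and names came from marker lists. No count model was run, since each age has 1 library. Levels have exact Poisson intervals, ratios exact conditional binomial intervals, shares Clopper-Pearson intervals and differences of shares Newcombe intervals (scipy 1.17.1). The ratio interval was tested on simulated data. edgeR 4.0.16 served only for TMM scaling factors of the 2 neuron sums.

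The members, gene lists and marker lists were chosen with earlier results of these data known. For each member the 3 genes with the most similar pattern are named, of each list the members past 1.5-fold or otherwise the 2 furthest in each direction, and of the peptide and transmitter genes the 5 highest in Trh or Crh neurons. One gene that this rule picks is not reported here.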

Additional observations from a re-analysis of the deposited data

Results flagged for a closer look

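For 3 of the genes, sub-clusters had intervals of the aged over young ratio wholly on opposite sides of 1. The interval lay above 1 in 7 and below 1 in 5 sub-clusters for Trhde. These counts were 5 and 1 for Trhr, and 1 and 2 for Crhbp. The share of all genes with such a split was not computed, so the counts have no background beside them. For Crhbp, 1 of the 2 intervals below 1 was that of Sim1/Adcyap1/Bdnf. Without the nucleus with most UMIs in each library it was 0.149 to 1.25 and held 1. The furthest pair of each gene is given here. These differences between sub-clusters were not tested, since each age has 1 library. Trhr had a ratio of 2.18 in Zeb2/Dgkk/Lhx8, on 57 and 26 UMIs, and 0.2503 in Synpo2/Plekhg1/Tcf7l2, on 9 and 26 UMIs. Trhde had a ratio of 2.40 in Npy/Sst/Nos1, on 36 and 16 UMIs, and 0.425 in Synpo2/Plekhg1/Tcf7l2, on 104 and 177 UMIs. Crhbp had a ratio of 1.44 in Egfr/Igfbp4/Kit and 0.241 in Npy/Sst/Nos1, the latter on only 7 aged and 31 young UMIs.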

How the results depend on the processing

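Of 49 recomputed ratios in neurons, 47 stayed within the counting interval of the reported value. The Trh ratio moved to 1.20 among the 4525 aged and 5816 young neurons with at most 1% mitochondrial UMIs, and the Trhde ratio turned from 0.950 to 1.01 with sub-clusters weighted alike; the cause was not tested. Over all alternatives Trhr stayed between 1.28 and 1.31, Crhr1 between 0.775 and 0.835, and Crhbp between 0.721 and 0.896. Of 37 recomputed differences in the share above background, 33 stayed within the interval. The Trhr difference was 0.236 points with a minimum of 5 UMIs. With every neuron thinned to 2000 UMIs and 1 UMI enough, the difference was -1.03 points for Trhde, -0.664 for Crhr1 and -0.371 for Crhbp. The sign of the difference also turned for Crh, from 0.0931 to -0.165 points with a minimum of 5 UMIs to -0.167 with thinning and to -0.000299 without the glial nucleus with most Crh UMIs, and the small differences of Crhr1, Crhr2 and Crhbp turned under 2 to 4 alternatives each. Those of Trh and Trhr kept their sign under all. The leading Trh sub-cluster held 79.5% of neuronal Trh UMIs as a mean of both libraries, 22.7% at Leiden resolution 2, where it is split, and 83.1% at resolution 0.5, where it is merged with others. Of the other genes, Trhr led in Otx2os1/Fam163a/Onecut2 with 2.98% of its neuronal UMIs and at resolution 0.5 in Gal/Tac2/Esr1 with 11.2%. The leading share of Crh went from 17.8% to 29.2% at resolution 0.5. That of Crhr2 went from 2.18% to 11.1% at resolution 2, 13.8% at 0.5 and 6.66% with doublets kept. The 64 recomputed counts of higher list members stayed within 1.5 times, while the lower members fell from 4 to 2 with sub-clusters weighted alike, both for the receptor, ligand and enzyme partners and for paraventricular identity. Glial markers made up 0.0295% of neuronal and 0.276% of empty-droplet UMIs in the aged library, and 0.0280% and 0.263% in the young one. Their quotient, taken as the share of free RNA in neurons, is 10.7% in both. Depth limits Crhr2 and Crhbp most, with 399 and 382 UMIs in all neurons. No paired analysis was possible because each age has 1 library.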
